A study of Mus musculus with 32 samples.

Results

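The nuclear genes for the subunits of the oxidative phosphorylation complexes were followed in mouse embryonic stem (ES) cells while the transcription factor GATA6 was switched on. The genes were taken by symbol: subunits of complex I (symbols starting Nduf followed by a, b, c, s or v and a number), Sdha to Sdhd of complex II, symbols starting Uqcr of complex III, Cox4 to Cox8 of complex IV, and Atp5 of complex V. A gene entered if its mean deposited value reached 5 at some time point. Of 86 matching rows among 54233, 78 passed, and these are the members described here. They were 35 genes of complex I, 4 of complex II, 8 of complex III, 14 of complex IV and 17 of complex V. Ndufa4, named as a complex I subunit but now known as part of complex IV, was counted with complex IV. The cutoff separated expressed from nearly silent rows: Atp5s, the member nearest to it, reached 6.58, and Ndufa4l2, the nearest row outside it, reached 4.55. The other rows left out were Cox4i2, Cox6a2, Cox7b2, Cox8b, Cox8c, Ndufa11b and a second row named Ndufa13. The members lie on 19 chromosomes, 3 of them on the X.

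The cells were the KH2 line, labelled C57BL/6, with a TRE:GATA6-DsRed2 transgene in which a doxycycline-responsive element drives GATA6 and the red fluorescent protein DsRed2. Bulk polyadenylated RNA was sequenced in 4 replicates at 0, 2, 4, 8, 16, 24, 48 and 96 h, 32 libraries in all. The 0 h cells were kept in 2i medium (inhibitors of MEK and GSK3) with LIF and no doxycycline. The induced cells received doxycycline at 1 µg/ml in serum medium for up to 12 h, and later time points were then grown in serum medium without it. Medium and doxycycline therefore changed together against 0 h and cannot be told apart in any comparison with 0 h, whereas all samples from 2 h on had been moved to serum. All samples come from 1 cell line, and no uninduced samples in serum were analysed here. The study calls its replicates biological and says that they were done independently, without giving which steps were separate, so p-values measure the spread between these samples of 1 line.

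Oxidative phosphorylation takes place in the inner mitochondrial membrane. Complex I accepts electrons from NADH and complex II from succinate, complex III passes them from ubiquinol to cytochrome c, complex IV passes them to oxygen, and complex V, the ATP synthase, uses the resulting proton gradient to make ATP. Complexes I, III, IV and V are assembled from subunits encoded in the nucleus and in mitochondrial DNA, while complex II is wholly nuclear. Pluripotent stem cells are known for a high rate of glycolysis, and mouse ES cells in the naive state also respire actively.

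The libraries held 3190108 to 12301732 reads on genes (median 8870662.5), and no member had fewer than 13 reads in any library. The transgene row had no reads at 0 h and a normalised read count of 618 ± 110 (SD, n = 4) at 2 h. A list of 5 genes of uninduced ES cells fell from a summed count of 26560 at 0 h to 2663 at 96 h, and a primitive endoderm list rose from 102 to 154722. Fibroblast or feeder genes and blood genes stayed at or under 17.4 in every library, and a mesoderm list ranged from 51.0 to 432 at 0 h and averaged 0.844 at 96 h. A trophoblast list of 4 genes averaged 306 at 0 h, 127 at 16 h and 320 at 96 h (165 to 453). Replicates 1 and 2 tended to deviate from replicates 3 and 4 as 2 sets, which the sources do not name as batches. Between times, deviations correlated at a mean of 0.196 within a set and -0.196 between sets, with some pairs of samples near 0. The 0 h library of replicate 1 carried a larger share of its reads on the members (1.76%) than the other 0 h libraries (1.49 to 1.56%), so the counts of members and of each complex against 0 h are given with and without it. The part of these differences in the results was not tested.

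The transcripts of the nuclear subunits were lower after induction at every time point, by modest amounts. A gene was called at a false discovery rate (FDR) below 0.1, from a linear model of log2 normalised read counts fitted over all 32 libraries and 15227 genes (limma, Benjamini-Hochberg). At 2 h, 38 of 78 members had fallen and none had risen, against 22.6% lower and 22.2% higher among all genes tested. The median log2 fold change of the members was -0.17. The replicate sets differed at 2 h: 67.9% of members were lower in replicates 1 and 2 alone (all genes 25.1%). In replicates 3 and 4 alone 28.2% were (all genes 24.5%). At 4 h, 60 members were lower and 0 higher (all genes 23.8% and 24.7%), and at 8 h, 64 and 0 (22.8% and 26.3%). At 16 h, 62 members were lower and 0 higher (25.3% and 28%), with a median of -0.40 against 0.01 for all genes. The 7 comparisons with 0 h share the same 0 h libraries, so they are not independent of each other. In bulk RNA, fewer cells of a type and less RNA per cell cannot be told apart.

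The fall was less widespread at 96 h, and a small number of members had risen by then. At 24 h, 57 members were lower and 0 higher (all genes 30.7% and 31.2%), and at 48 h, 57 and 6 (37.3% and 36.1%). At 96 h, 43 members were lower and 8 higher (38.5% and 38%), with a median of -0.23, so the members' share of lower calls stood nearer to that of all genes than at 16 h. That excess at 96 h was smaller still once trends with length and GC content were removed: 33 members were then lower (42.3%, against 39.8% of all genes) and 25 higher, and the median was -0.087. In 61 members at 16 h and 39 at 96 h, all 4 induced libraries lay below all 4 of the 0 h libraries, as in 20.5% and 32.1% of all genes tested. A change of at least 4-fold was rare: Cox7a1 was the only member at least 4-fold lower at 96 h, against 10.3% of all genes tested. Without 0 h replicate 1 the counts of lower members from 2 to 96 h were 23, 47, 61, 58, 56, 53 and 42 and of higher members 0, 0, 0, 0, 2, 7 and 10. Of all genes tested, 21.1, 24.3, 36 and 38.1% were then lower at 2, 16, 48 and 96 h. The shares of all genes higher were 21.1, 26.9, 35 and 37.5%. The members' median was then -0.09 at 2 h and -0.18 at 96 h. By complex, without that library, the members lower at 2 h were 13 in complex I (37.1%), 2 in complex II, 4 in complex III, 2 in complex IV (14.3%) and 2 in complex V (11.8%), against 21.1% of all genes, so the last 2 were below the share of all genes. At 16, 48 and 96 h they were 26, 23 and 17 in complex I, 3, 2 and 2 in complex II, 6, 6 and 5 in complex III, 11, 10 and 10 in complex IV and 12, 12 and 8 in complex V. At 96 h complexes I, II and V had 48.6, 50 and 47.1% lower. These were nearer to the 38.1% of all genes than complexes III and IV (62.5 and 71.4%).

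**Figure D1:**
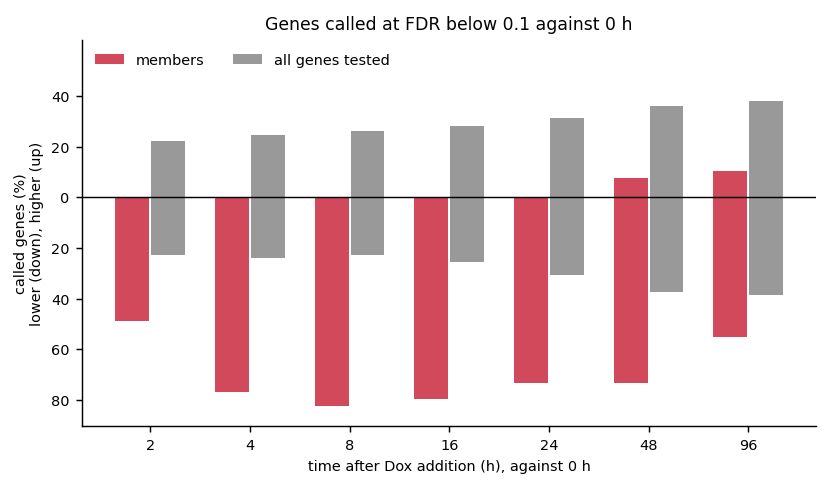
Percent of genes called at FDR below 0.1 against 0 h (y axis; higher drawn upwards, lower drawn downwards) at each time after induction (x axis, h), for the 78 members and for the 15227 genes tested. No member was called higher up to 24 h, while 60 to 64 members were called lower at 4, 8 and 16 h, a larger share than among all genes.

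Individual members followed different courses. Of the 78, 20 were lower at all 7 times, 11 were higher at 1 or more times, and 10 of those 11 were also lower at another time. Atp5f1, Ndufa4, Ndufb3, Ndufs3 and Uqcrc2 were called at none. The highest mean of the 8 time points was at 0 h in 54 members (36 without 0 h replicate 1), and the lowest was at 48 h in 29, at 8 h in 13 and at 96 h in 12. The same patterns were not counted over all genes tested, so these counts describe the members alone. The members were short transcripts, with a median exon length of 1631 bases against 3991 for all genes tested, and their GC content was similar (50.2% and 49.7%). Removing trends with length and GC raised the members' values.

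**Figure D2:**
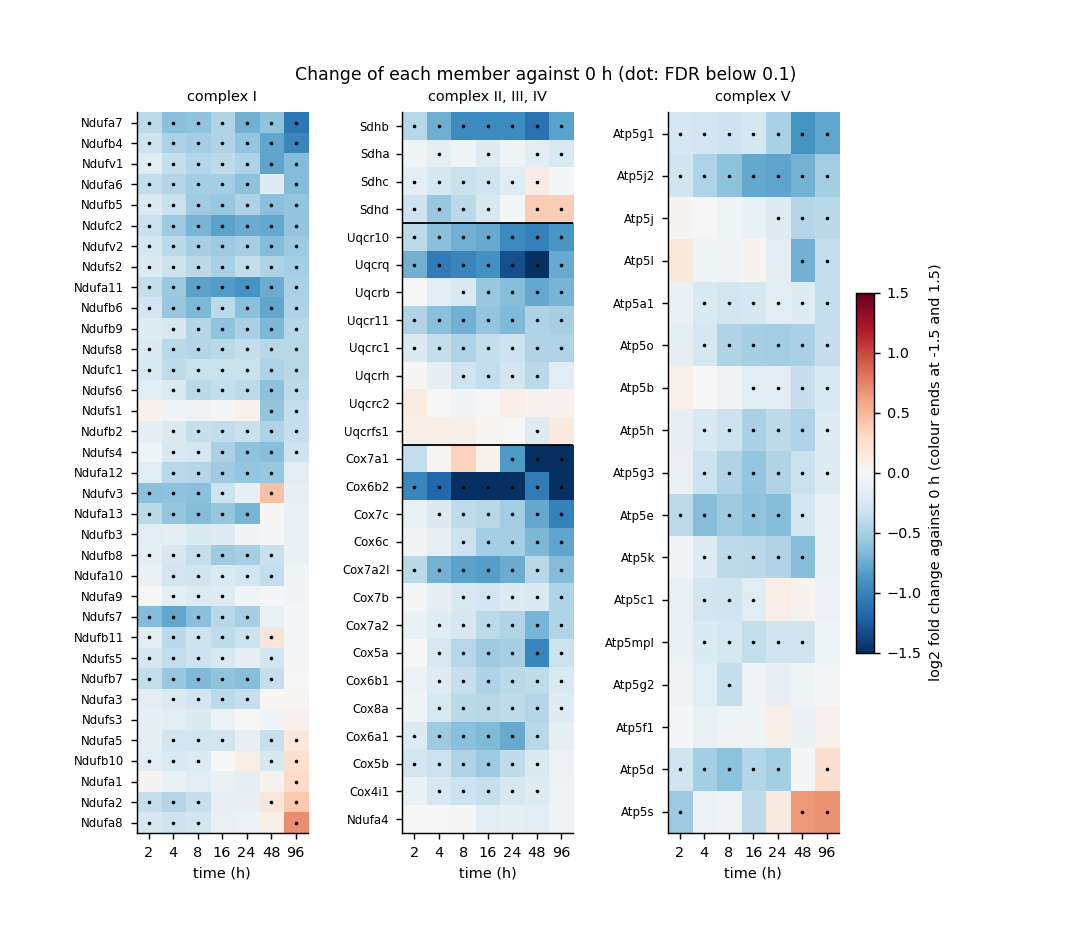
Log2 fold change against 0 h (colour, ends at ±1.5) of each of the 78 members (rows, grouped by complex) at 7 times after induction (columns, h), with a dot where FDR was below 0.1. Blue or red fields without a dot did not pass; most fields are below 0, and Sdhd, Atp5s and Ndufa8 are among the exceptions at 48 or 96 h.

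The members also took a smaller share of all reads on genes after induction, a scale that needs no size factor. This share was lowest at 96 h, whereas the median fold change with the size factors was less negative at 96 h than at 48 h. Scaled by total reads, the median log2 fold change of all genes was lower too, -0.13 at 2 h and -0.29 at 96 h. That of the members was -0.275 and -0.50, so part of the fall in share was common to all genes. The summed share was 1.59% ± 0.117 (SD, n = 4) before induction and 1.37% after 2 h. It was down to 1.23% by 16 h, 1.15% by 48 h and 1.11% by 96 h. All 28 induced libraries lay below all 0 h libraries (1.49 to 1.76%), with 1.36 to 1.39% at 2 h and 1.08 to 1.12% at 96 h. Complex V, whose catalytic subunits are the most abundant members, took 0.698% of reads at 0 h and 0.495% at 96 h. Complex I went from 0.361% to 0.249%, complex IV from 0.277% to 0.184%, complex III from 0.153% to 0.101% and complex II from 0.0996% to 0.0768%. The 13 subunits encoded in mitochondrial DNA took 2.08% ± 0.149 at 0 h and 2.08% ± 0.101 at 96 h, and their ranges overlapped. Their reads per read on the nuclear members were 1.32 ± 0.154 at 0 h (1.09 to 1.43), 1.66 ± 0.0449 at 2 h (1.62 to 1.72) and 1.88 ± 0.0726 at 96 h (1.78 to 1.95, SD, n = 4). That ratio did not overlap between 0 h and either later time.

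**Figure D3:**
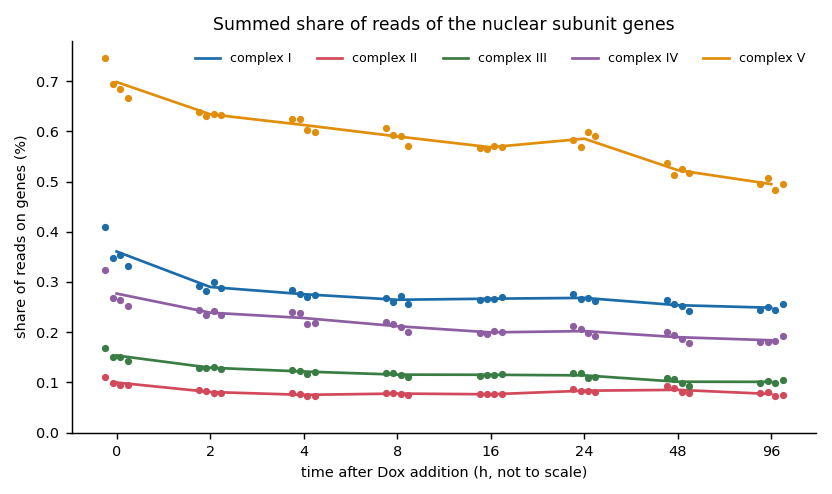
Share of the reads on genes (%, y axis) taken by the members of each complex in every library (points, in replicate order; lines join the means), by hours after induction (x axis, not to scale). In each complex the 4 libraries of 0 h sit above all induced libraries, and 0 h replicate 1 is the top point.

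The subunits of complex II moved apart from each other. Succinate dehydrogenase consists of the flavoprotein Sdha, which oxidises succinate, the iron-sulfur protein Sdhb, and the membrane anchors Sdhc and Sdhd, where ubiquinone is reduced. The 4 subunits are needed in equal numbers in each complex. Promoter sequence just upstream of the annotated starts is shown for 3 of them because their transcripts moved in different directions, from RefSeq on GRCm38.p6, 5′ to 3′ on the gene's strand, with capitals marking matches to the motif letters listed with the promoter counts further on. Sdhc had no entry in the promoter table. The windows are chr13:74350281-74350380 on the minus strand for Sdha, chr4:140961103-140961202 on the plus strand for Sdhb and chr9:50603850-50603949 on the minus strand for Sdhd. Counted from the RefSeq start they run from -140 to -41 (Sdha), -168 to -69 (Sdhb) and -100 to -1 (Sdhd). They are at unlike positions, so their letters are not a matched comparison.
Sdha: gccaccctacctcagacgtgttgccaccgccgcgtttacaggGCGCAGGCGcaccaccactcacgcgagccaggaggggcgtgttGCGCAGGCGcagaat
Sdhb: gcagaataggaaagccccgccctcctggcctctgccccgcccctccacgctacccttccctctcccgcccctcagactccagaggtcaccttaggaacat
Sdhd: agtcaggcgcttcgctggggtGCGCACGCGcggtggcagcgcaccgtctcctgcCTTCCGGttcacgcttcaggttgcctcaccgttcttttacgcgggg
The Sdha window holds 2 copies of the NRF1 letters, the Sdhd window holds the NRF1 letters once and the GABPA letters on the other strand, and the stretch shown for Sdhb holds none of the letters searched. In the longer window used for the counts, 250 bases before to 50 after the start, Sdhb holds the GABPA and CCAAT letters and Sdha also the CCAAT letters.

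Sdhb fell early and remained low. Its normalised read counts were 1666, 1402, 1394 and 1341 at 0 h, then 1101, 1085, 1056 and 1046 at 2 h. By 16 h they were 704, 712, 806 and 766. The 48 h libraries had 705, 739, 625 and 597, and the 96 h libraries 844, 828, 783 and 852. All later libraries named lay below the lowest 0 h library. The log2 fold change was -0.43 ± 0.07 (SE) at 2 h, -0.95 at 16 h, -1.12 at 48 h (adjusted p = 5.67e-15) and -0.81 at 96 h (adjusted p = 8.01e-12), and the rise from 48 to 96 h was 0.32 (adjusted p = 0.000359).

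Sdhd dipped and then rose above its starting level. Before induction its counts were 2257, 1890, 1739 and 1842. After 2 h they were 1729, 1726, 1372 and 1427, and the 16 h libraries had 1657, 1628, 1633 and 1592. At 48 h they were 2618, 2512, 2460 and 2425, and at 96 h 2625, 2564, 2327 and 2460. All 48 and 96 h libraries were above the highest 0 h library. The log2 fold change was -0.31 ± 0.09 at 2 h (adjusted p = 0.00932), -0.56 at 4 h, 0.38 at 48 h (adjusted p = 0.00062) and 0.37 at 96 h (adjusted p = 0.000672). Scaling by total reads in place of the authors' size factors gave 0.25 at 48 h, still called, and 0.11 at 96 h, not called.

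The number of Sdhd reads per Sdhb read in a library does not depend on scaling. It was 1.33 ± 0.0567 (SD, n = 4; 1.25 to 1.37) at 0 h, 2.19 ± 0.158 at 16 h, 3.78 ± 0.292 (3.40 to 4.07) at 48 h and 3.02 ± 0.107 (2.89 to 3.11) at 96 h. Both replicate sets showed both directions at 48 h, with -1.08 and -1.16 for Sdhb and 0.31 and 0.45 for Sdhd. The remaining subunits moved little. Sdha was lower at 48 h (log2 fold change -0.17, adjusted p = 0.00209) and 96 h (-0.24, adjusted p = 4.41e-05). Sdhc was lower at 16 h (-0.30) and just passed as higher at 48 h (0.12 ± 0.06, adjusted p = 0.073), a call whose sign turned to -0.01 with total reads, and at 96 h it was at -0.03.

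**Figure D4:**
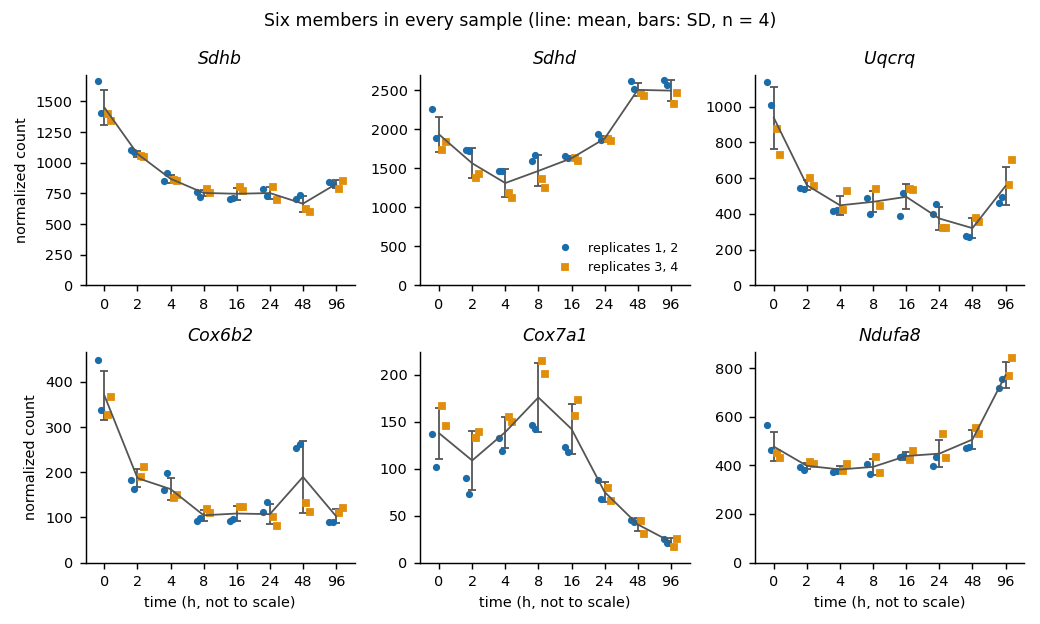
Normalised read counts (y axis) of Sdhb, Sdhd, Uqcrq, Cox6b2, Cox7a1 and Ndufa8 in each of the 32 libraries (points), with the mean and SD of 4 replicates, by hours after induction (x axis, not to scale); circles are replicates 1 and 2, squares replicates 3 and 4. Sdhb stays low after 2 h while Sdhd is highest at 48 and 96 h, the 48 h libraries of Cox6b2 fall into 2 pairs, and Ndufa8 is highest at 96 h.

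Complex I had 22, 28, 23 and 17 of its 35 members lower at 2, 16, 48 and 96 h (62.9, 80, 65.7 and 48.6%), where the shares of all genes, to be read beside the counts of every complex, were 22.6, 25.3, 37.3 and 38.5%. None was higher at 2 or 16 h, 3 were at 48 h and 5 at 96 h, and the median log2 fold changes at these times were -0.20, -0.39, -0.36 and -0.17. Among the core subunits, which carry the redox centres and are conserved in bacteria, Ndufv1 holds the flavin that accepts electrons from NADH. Its log2 fold change was -0.39 ± 0.08 at 16 h and -0.79 ± 0.08 at 48 h (adjusted p = 2.25e-10), and all 48 h libraries (721, 733, 930 and 926) lay below all 0 h libraries (1316 to 1638). Ndufs1, an iron-sulfur subunit, had not fallen at 16 h (-0.02, adjusted p = 0.729) but was lower at 48 h (-0.59, adjusted p = 3.43e-11). Ndufs3 was at -0.04 at 48 h and 0.06 at 96 h and was called at no time.

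Ndufs7 and Ndufv3 fell first and stood nearer to 0 h at 96 h, where the replicate sets differed in sign. Ndufs7, the iron-sulfur subunit next to the ubiquinone site, had counts of 444, 416, 401 and 340 at 0 h and 231, 260, 302 and 226 at 2 h. At 96 h they were 335, 365, 457 and 420, which overlapped with 0 h. The change was -0.65 ± 0.11 on the log2 scale after 2 h (adjusted p = 9.76e-06), -0.78 after 4 h and -0.03 after 96 h, when it was -0.30 in replicates 1 and 2 (adjusted p = 0.0103) and 0.25 in replicates 3 and 4 (adjusted p = 0.0531). Ndufv3, an accessory subunit bound to the NADH-oxidising module, went from 605, 515, 451 and 501 at 0 h to 342, 307, 339 and 348 at 2 h (-0.62 ± 0.09, adjusted p = 2.39e-06). It then reached 741, 697, 705 and 655 at 48 h (0.44, adjusted p = 0.000102) and stood at 399, 448, 502 and 552 at 96 h (-0.13, not called). Within the sets the 96 h value of Ndufv3 was -0.40 (adjusted p = 0.0011) in replicates 1 and 2 and 0.15 (adjusted p = 0.111) in replicates 3 and 4. Its 2 h libraries lay below and its 48 h libraries above all 0 h libraries.

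Accessory subunits of complex I ended on opposite sides of their 0 h level. Ndufa7 had the largest fall of complex I at 96 h: counts of 1329, 1135, 1055 and 1026 at 0 h became 514, 474, 550 and 609 (-1.08 ± 0.08, adjusted p = 1.28e-13), with no overlap. Ndufb4, a membrane-arm subunit, went from 484, 467, 434 and 321 to 206, 216, 225 and 211 (-0.97 ± 0.10, adjusted p = 3.39e-10). Ndufa8, an accessory subunit of the intermembrane-space side, moved the other way, from 566, 463, 451 and 429 at 0 h to 716, 755, 769 and 843 at 96 h (0.70 ± 0.08, adjusted p = 1.14e-08). At 48 h it had been at 470, 475, 552 and 527, which overlapped with 0 h, and the change from 48 to 96 h was 0.61 (adjusted p = 6.38e-07). There were 1.13 ± 0.155 Ndufa8 reads per Ndufb4 read at 0 h (0.990 to 1.34) and 3.60 ± 0.268 at 96 h (3.43 to 4.00, SD, n = 4). Ndufa11 and Ndufc2, both in the membrane arm, were lower at 16 h by -0.84 ± 0.11 and -0.80 ± 0.09, and at 96 h by -0.48 and -0.59.

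The other rises in complex I were small. Ndufa2 was higher at 96 h by 0.39 ± 0.09 (adjusted p = 0.000548), a value of 0.13 that was not called with total reads, and 0.15 in replicates 1 and 2 against 0.63 in replicates 3 and 4. Ndufb10 rose by 0.25 (adjusted p = 0.00181), Ndufa1 by 0.28 (adjusted p = 0.0206) and Ndufa5 by 0.16 (adjusted p = 0.0825) at 96 h, and Ndufb11 by 0.20 (adjusted p = 0.0216) at 48 h.

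Complex III combined subunits that did not pass the test with small subunits that fell strongly. Of its 8 members, 4, 6, 7 and 5 were lower at 2, 16, 48 and 96 h (50, 75, 87.5 and 62.5%), and none was higher at those times. Uqcrc2, a core protein that supports the structure of the complex, had 1930, 2048, 1934 and 1806 normalised reads at 0 h and 2086, 2123, 1828 and 1998 at 96 h, which overlapped (0.06 ± 0.07, adjusted p = 0.438). With total reads it was lower at 96 h (-0.21, called). Its partner Uqcrc1 was lower at 48 h (-0.45) and at 96 h (-0.46 ± 0.05, adjusted p = 1.56e-10). Uqcrfs1, the Rieske iron-sulfur protein, was slightly lower at 48 h (-0.19, adjusted p = 0.0481, and -0.12, not called, without 0 h replicate 1) and then rose by 0.34 to 96 h (adjusted p = 0.00142).

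Uqcrq, a small subunit close to the ubiquinone-binding region, had the largest fall of complex III at 48 h. Before induction its counts were 1136, 1009, 874 and 731. The 2 h libraries had 545, 538, 601 and 555, and the 16 h libraries 391, 514, 541 and 536. They reached 276, 271, 376 and 357 at 48 h and 462, 494, 564 and 703 at 96 h. Every library from 2 h on named here lay below the lowest 0 h library. The log2 fold change was -0.72 ± 0.14 at 2 h (adjusted p = 0.000175) and -1.54 ± 0.14 at 48 h (adjusted p = 9.36e-11), and 0.79 from 48 to 96 h (adjusted p = 4.35e-05). Uqcrq reads per Uqcrc2 read were 0.484 ± 0.0782 at 0 h (0.405 to 0.589), 0.162 ± 0.0403 at 48 h (0.125 to 0.201) and 0.279 ± 0.0624 at 96 h (0.221 to 0.352, SD, n = 4). Uqcr10, another small subunit, was lower by -1.01 ± 0.08 at 48 h (adjusted p = 4.39e-12) and -0.87 at 96 h.

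Complex IV had 4, 12, 13 and 10 of its 14 members lower at 2, 16, 48 and 96 h (28.6, 85.7, 92.9 and 71.4%) and none higher, with median log2 fold changes of -0.10, -0.44, -0.42 and -0.39. Cox5a, a matrix-facing subunit, was not called at 2 h (-0.01, adjusted p = 0.945), lower at 48 h (379, 358, 407 and 400 against 616 or more at 0 h; -0.98 ± 0.10, adjusted p = 4.98e-10) and back to 595, 662, 625 and 549 at 96 h (0.65 from 48 to 96 h, adjusted p = 3.01e-06). Cox7c, in contrast, was lowest at 96 h (363, 304, 343 and 346 against 638 to 789 at 0 h; -1.01 ± 0.09, adjusted p = 7.91e-12). Cox4i1, the large subunit through which ATP regulates the enzyme, was lower at 16 h (-0.34, adjusted p = 0.000114) and at 96 h stood at -0.08, which was not called. Cox6a1 was at -0.67 at 16 h and -0.13 at 96 h. Ndufa4 was called at no time, with a value at 48 h of -0.43 in replicates 1 and 2 and 0.09 in replicates 3 and 4.

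Several complex IV subunits exist as paired isoforms, a common form and a form known from particular tissues, and in 2 families the second form lost most of its transcripts. Cox6b2 is known as the testis form of the subunit that bridges the dimer, and Cox7a1 as the form of heart and skeletal muscle. The upstream promoter sequence of both is shown because these were the members with the largest falls at 96 h. The windows are chr7:4753095-4753194 on the minus strand for Cox6b2 and chr7:30184044-30184143 on the plus strand for Cox7a1 (GRCm38.p6, RefSeq), and capitals mark the CCAAT letters, here on the other strand. Counted from the RefSeq start they run from -100 to -1 (Cox6b2) and from -127 to -28 (Cox7a1).
Cox6b2: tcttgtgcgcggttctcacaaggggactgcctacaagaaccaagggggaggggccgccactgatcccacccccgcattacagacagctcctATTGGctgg
Cox7a1: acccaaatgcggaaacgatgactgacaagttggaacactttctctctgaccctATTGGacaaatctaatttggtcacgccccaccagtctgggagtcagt
Neither window holds the NRF1, GABPA or YY1 letters.

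Cox6b2 fell within 2 h. The uninduced libraries had 449, 338, 327 and 366 reads, the 2 h libraries 184, 163, 190 and 211, and the 16 h libraries 92.2, 96.9, 122 and 123 (log2 fold changes of -0.98 ± 0.20, adjusted p = 0.000236, and -1.76). At 48 h the replicates divided into 254 and 262 in replicates 1 and 2 and 131 and 111 in replicates 3 and 4, so that the change against 0 h was -0.59 in the former set and -1.51 in the latter. At 96 h the counts were 90.2, 89.4, 110 and 120 (-1.84 ± 0.20, adjusted p = 1.49e-09), below every 0 h library. The fall from 48 to 96 h was -1.51 in replicates 1 and 2 and -0.07 in replicates 3 and 4 (adjusted p = 0.692), so it rests on the former set. Cox6b2 reads per Cox6b1 read, the common form, were 0.152 ± 0.0110 at 0 h, 0.0819 ± 0.00497 at 2 h and 0.0493 ± 0.00455 at 96 h (SD, n = 4). On a per-length scale Cox6b2 made up 8.84% ± 0.589 of the pair at 0 h, 4.97% ± 0.287 at 2 h, 3.64 to 8.84% at 48 h and 3.06% ± 0.273 at 96 h. Cox6b1 itself was at -0.47 at 16 h and -0.23 at 96 h.

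Cox7a1 fell late. Its counts were 137, 102, 167 and 145 at 0 h and 124, 117, 156 and 173 at 16 h, which overlapped (0.05, not called). They ranged from 29.9 to 45.2 at 48 h and were 25.5, 21.0, 16.3 and 25.5 at 96 h, all below the 0 h range. The log2 fold change was -0.85 at 24 h (adjusted p = 0.000546), -1.73 ± 0.20 at 48 h (adjusted p = 6.23e-09) and -2.59 ± 0.20 at 96 h (adjusted p = 7.53e-13). Both replicate sets fell, by -2.30 and -2.87 at 96 h. Per length, Cox7a1 made up 9.96% ± 2.48 of the Cox7a family at 0 h, 15.0% ± 3.43 at 8 h and 2.40% ± 0.499 at 96 h, while Cox7a2, the common form, went from 73.7% to 81.8%. In reads Cox7a2 was itself lower at 48 h (-0.70) and 96 h (-0.45). Cox7a2l, a relative that takes part in joining complexes III and IV, was lower at 16 h by -0.82 ± 0.09 and made up 16.3% of the family at 0 h and 15.8% at 96 h. Cox8a, the common form of another small subunit, was at -0.43 at 48 h. The muscle forms Cox6a2 and Cox8b and the testis form Cox8c had at most 3 reads in any library, and Cox4i2, the form known from lung and low oxygen, stayed under 1% of its pair in the mean at 0, 16 and 96 h (0.150, 0.622 and 0.115%).

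Complex V had 5, 12, 12 and 9 of its 17 members lower at 2, 16, 48 and 96 h (29.4, 70.6, 70.6 and 52.9%), with 1 higher at 48 h and 2 at 96 h. Its catalytic subunits led the members in level per length at 0 h, with 4883 normalised reads per kilobase for Atp5b (beta) and 4054 for Atp5a1 (alpha), against 27.6 for Atp5s at the other end. Atp5b had 20092 to 21429 normalised reads at 0 h and 21665 to 22133 at 2 h, when it was not called (0.08, adjusted p = 0.196). It was lower at 48 h (15385 to 17057; -0.34 ± 0.05, adjusted p = 2.07e-07) and 96 h (17377 to 17947; -0.24, adjusted p = 5.38e-05), each without overlap. Atp5a1 was lower at 96 h by -0.35 (adjusted p = 5.42e-07). Atp5c1, the rotating gamma subunit, was lower at 16 h (-0.19, adjusted p = 0.0253, and -0.13, not called, without 0 h replicate 1) and not called at 48 or 96 h (0.05 and -0.09).

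The c subunit of the rotor ring comes from 3 genes, Atp5g1, Atp5g2 and Atp5g3, which differ in their import sequences and give the same mature protein. Atp5g1 had 704, 589, 665 and 657 normalised reads at 0 h and 344, 288, 387 and 395 at 48 h (-0.89 ± 0.11, adjusted p = 1.02e-08), and at 96 h it was at -0.78. Atp5g2 was called at none of 2, 16, 48 and 96 h (-0.05, -0.05, -0.07 and -0.03). Atp5g3, which per length supplied 84.2% of the family at 0 h, was at -0.58 at 16 h and -0.19 at 96 h. Per length, Atp5g1 supplied 7.03% at 0 h and 4.73% at 96 h, and Atp5g2 8.79% and 9.94%.

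Among the other complex V members, Atp5s and Atp5d ended higher. Atp5s, known as coupling factor B and named Dmac2l in RefSeq, was counted with complex V by its symbol alone. The least abundant member, it had 46.9, 57.7, 54.0 and 66.1 normalised reads at 0 h and 24.9, 30.2, 50.4 and 53.4 at 2 h. It had 107, 75.4, 73.9 and 102 at 48 h and 83.8, 79.9, 108 and 89.8 at 96 h, above all 0 h libraries (0.66, adjusted p = 0.00658, and 0.68, adjusted p = 0.00475). Its SE was 0.21, since low counts vary more. Atp5d, the delta subunit of the rotor stalk, was called higher at 96 h (0.23, adjusted p = 0.0415), with -0.09 in replicates 1 and 2, 0.56 in replicates 3 and 4 and -0.03 with total reads. Atp5j2, a membrane subunit, was lower at 16 h (-0.77, adjusted p = 2.25e-07). Atp5l, another membrane subunit, was lower at 48 h (-0.72, adjusted p = 1.02e-05).

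From 48 to 96 h, 35 members rose and 13 fell, against 27.3% and 27.2% of all genes, with a median log2 change of 0.12 where that of all genes was 0.00. Rises were most frequent in complex I (17 up, 5 down) and complex V (9 and 2). In complex III 3 rose and none fell, in complex IV 5 rose and 5 fell, and in complex II Sdhb rose while Sdhc fell by 0.15 (adjusted p = 0.0425). Uqcrq, Cox5a, Ndufa8, Ndufa5 (0.50) and Ndufb10 (0.48) were among the rises. Between 24 and 48 h, 18 members rose and 21 fell (all genes 29.8% and 27.8%). Within serum alone, 38 members were lower and 17 higher at 96 h than at 2 h (all genes 39.4% and 37.6%), with a median of -0.13. The share of members lower there (48.7%) was above, and the share higher (21.8%) below, that of all genes. With length and GC trends removed, 29 were higher and 22 lower (37.2% and 28.2%, all genes 37.8% and 39.4%), and the median turned to 0.073. The share higher was then near that of all genes, and the share lower was below it. With level removed as well, 33 were higher and 21 lower (42.3% and 26.9%, all genes 37.8% and 39.7%), with a median of 0.085.

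These late counts depended on the scaling of the libraries. With total reads in place of the authors' size factors, the median of all genes moved by -0.29 at 96 h against 0 h and by -0.12 from 48 to 96 h. The members then gave 2 higher and 69 lower at 96 h against 0 h (all genes 29.6% and 50.1%), 9 and 50 at 96 h against 2 h (32.4% and 45.8%), and 12 and 19 from 48 to 96 h (19.4% and 34.5%). With upper-quartile scaling the same counts were 3 and 67 (all genes 31.6% and 47.2%), 9 and 45 (33% and 45.1%), and 17 and 18 (21% and 32.9%). The members still higher with total reads were Atp5s (0.52), Ndufv3 (0.31) and Sdhd (0.25) at 48 h and Atp5s (0.42) and Ndufa8 (0.43) at 96 h. At 48 h total reads gave 3 higher and 63 lower (all genes 31% and 43.5%), and at 2 h 0 and 60 (17.2% and 31.1%). A change of scaling moves all genes of a library by nearly the same amount. The members' median relative to the median of all genes could therefore hardly change, so its agreement between scalings is no test. With the size factors the difference from that median was -0.14, -0.41, -0.38 and -0.20 at 2, 16, 48 and 96 h, and with total reads it was -0.15, -0.41, -0.39 and -0.21. From 48 to 96 h it was 0.12 under either scaling.

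**Figure D5:**
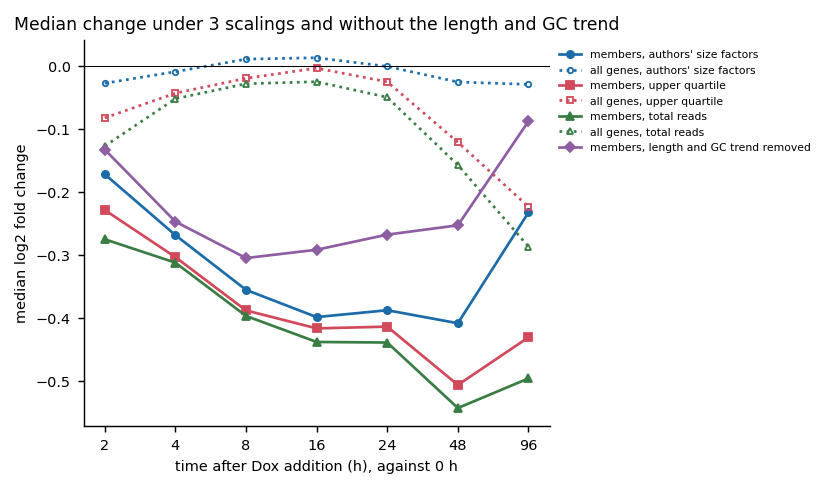
Median log2 fold change against 0 h (y axis) of the members and of all genes tested, by hours after induction (x axis), under 3 scalings (the authors' size factors, upper quartile and total reads; filled symbols for members, open symbols for all genes), and of the members alone with length and GC trends removed. Under each scaling the members' line runs below the line for all genes at every time. The gap between these lines is nearly fixed, since a scaling moves all genes of a library alike. With total reads both lie lower at 96 h than with the size factors.

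Few of the subunits encoded in mitochondrial DNA were called lower. With the size factors none of the 13 was lower at 2, 48 or 96 h, where 6, 8 and 7 were higher. These were 46.2, 61.5 and 53.8%, against 22.2, 36.1 and 38% of all genes. The medians of the 13 were 0.20, 0.25 and 0.16. At 16 h 3 were higher and 1 lower (median 0.09, all genes 28% and 25.3%). With total reads 4, 2 and 4 were higher and 0, 1 and 2 lower at 2, 48 and 96 h. The 96 h median of the 13 turned to -0.11. All genes were then 17.2, 31 and 29.6% higher and 31.1, 43.5 and 50.1% lower. The share of the 13 higher was then below that of all genes at 48 h and near it at 96 h. At 96 h mt-Nd5 was higher by 0.64 ± 0.08 (adjusted p = 2.78e-08), mt-Nd4 by 0.54 (adjusted p = 4.8e-09) and mt-Nd6 by 0.52 (adjusted p = 7.6e-06), all of complex I. The complex IV subunit mt-Co1 was at 0.14 (adjusted p = 0.121), after -0.35 at 16 h (called lower). The libraries were made from polyadenylated RNA, and mitochondrial transcripts carry short tails. What that does to these values was not tested.

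Other mitochondrial genes were mixed, and their counts stand beside 22.6, 37.3 and 38.5% of all genes lower and 22.2, 36.1 and 38% higher at 2, 48 and 96 h. With total reads 50.1% of all genes were lower and 29.6% higher at 96 h, and 34.5% and 19.4% from 48 to 96 h. Of 6 nuclear subunits and carriers outside the symbol rule, 5 were lower and 1 higher at 48 h, and 3 and 0 at 96 h. Cycs, the somatic cytochrome c that carries electrons from complex III to complex IV, was lower at 48 h (-1.08 ± 0.10, adjusted p = 1.8e-10) and rose by 1.20 to 96 h, when it was at 0.12. Cyct, the testis form, fell from 76.9 normalised reads at 0 h to 11.3 at 96 h (-2.85 ± 0.28). Of 43 assembly factors tested of 46, 28 were lower and 3 higher at 2 h (65.1% and 6.98%), and 15 were lower and 15 higher at 96 h, 34.9% each and near the shares of all genes (22 and 5 with total reads). Ndufaf5 (-1.62 at 96 h) and Ndufaf4 (-1.53 at 48 h), both needed to build complex I, fell most plainly, and Lyrm7, a chaperone for the Rieske protein, rose by 1.12 at 96 h. Of 79 mitochondrial ribosomal proteins tested of 83, 53 were lower and 10 higher at 48 h (67.1% and 12.7%) and 33 lower and 20 higher at 96 h (41.8% and 25.3%), and from 48 to 96 h 40 rose and 8 fell (27 and 12 with total reads), while Mrpl23 was higher by 1.55 at 48 h. Of 13 import and cristae genes, 8 were lower and 2 higher at 48 h and 7 lower and 3 higher at 96 h, among the lower Phb, a prohibitin of the inner membrane, by -1.11 at 96 h.

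The citric acid cycle, which shares complex II, gave 3 higher and 4 lower of 14 at 48 h and 7 higher and 2 lower at 96 h. At 48 h these were 21.4% and 28.6%, both below the 36.1% and 37.3% of all genes. At 96 h they were 50% and 14.3%, against 38% and 38.5% of all genes. With total reads the 96 h counts were 3 and 7, where 29.6% of all genes were higher and 50.1% lower. Dlst, a subunit of 2-oxoglutarate dehydrogenase, was higher by 0.85 at 48 h, Suclg2 by 0.78, and Cs, citrate synthase, was lower by -0.64. The cytosolic ribosomal proteins, also short and abundant transcripts, took 4.47% of reads on genes at 0 h (3.85 to 5.37%) and 2.49% at 96 h, and so also fell in share. Of 16 regulators of mitochondrial genes tested of 18, 6 rose and 5 fell by 2 h, 3 rose and 10 fell by 48 h, and 4 rose and 9 fell by 96 h (3 and 12 with total reads). Esrrb, an orphan nuclear receptor of the naive state, fell throughout, with log2 fold changes of -0.80, -2.50, -4.20 and -7.13 at 2, 16, 48 and 96 h (adjusted p from 1.26e-25 to 0.000247). Ppargc1b, a coactivator of mitochondrial genes, was lower at 2 h (-1.41, adjusted p = 0.00252) and 48 h (-1.84), and its relative Ppargc1a was not tested. Esrra, the receptor that such coactivators act through, was lower at 2 h (-0.82) and higher at 48 and 96 h (0.89 and 0.95). Gabpa was higher at 2 h (0.66) and lower at 96 h (-0.97), Nrf1 was higher at 2 and 16 h (0.49 and 0.43), and Tfam, which packages mitochondrial DNA, was at 0.05 at 2 h and lower at 96 h (-0.40). Polg, the mitochondrial DNA polymerase, was higher by 1.83 at 48 h.

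NRF1, GABPA and YY1 are known to bind many promoters of nuclear respiratory genes, so these letters were counted in the window from 250 bases before to 50 after each RefSeq start. The letters were GCGCANGCG for NRF1, CCGGAAG for GABPA and AAGATGGCG for YY1, with CCAAT and TATAAA for comparison, each on both strands, and matches to the GABPA and YY1 letters can overlap because the former end and the latter begin with AAG. Of 78 members, 66 matched the promoter table, with 71 windows. The NRF1 letters were in 21 of 71 windows (29.6%), against 12.5% of the windows of tested genes and 6.25% of all windows. YY1 letters were in 7 (9.86%, against 2.79% and 1.40%), GABPA letters in 16 (22.5%, against 16.6% and 8.86%) and CCAAT in 30 (42.3%, against 37.9% and 37.4%). TATAAA was in 6 (8.45%, against 7.21% and 13.6%). These are matches of letters, not binding sites. The 20 members with NRF1 letters and the 46 without had close medians, -0.38 and -0.41 at 48 h and -0.19 and -0.23 at 96 h, with 15 and 33 lower at 48 h (all genes 37.3%). For GABPA (16 with, 50 without) the medians were -0.42 and -0.34 at 48 h and -0.19 and -0.24 at 96 h. For YY1 (7 and 59) they were -0.46 and -0.38, then -0.40 and -0.19. For CCAAT (29 and 37) they were -0.41 and -0.36, then -0.24 and -0.10. At 96 h 20 members with and 16 without CCAAT were lower, and 1 and 6 higher (all genes 38.5% and 38%). These splits were not tested.

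Some counts are uncertain because near-identical copies exist. Atp5l, Atp5k, Atp5c1, Uqcrh, Ndufb4, Cox6c and Ndufs6 have pseudogenes or copies listed as separate rows, and reads that fit more than 1 place could be divided or lost between them. There were 12 further rows named only through a gene table, among them Ndufb1-ps at 9.50, that were not counted as members. What these copies add to a member's value was not tested.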

How the data were processed

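Bulk RNA-seq of 32 libraries (8 time points, 4 replicates each, grouped by the time stated in the labels) was analysed. The authors trimmed single-end reads with cutadapt 2.7, aligned them to GRCm38 with HISAT2 2.1.0, counted genes with featureCounts (Subread 1.6.4) and deposited log2-scale values after the variance-stabilising transformation of DESeq2. The deposited log2 values were inverted to normalised read counts; dividing by what 1 read is worth gave whole reads for 100% of values within 0.01, so each library's depth was recovered. Column names matched the labels, and no column was left unmapped.

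The main test was limma-trend (limma 3.58.1, R 4.3.3; Python 3.11.15, numpy 2.4.6, pandas 2.3.3) on log2(normalised count + 1), over genes with at least 10 normalised reads in at least 4 libraries (15227 genes, all 78 members included), with 1 mean per time point and no covariate. Calls used a Benjamini-Hochberg FDR below 0.1. Fold changes are on the log2(count + 1) scale, which understates changes of genes with few reads. The script was tested on simulated counts with known changes. Gene lengths, GC content and the names of rows without a symbol came from GENCODE and gene tables on the same build. Replicate numbers were not used as a block in the main model. Same-numbered samples deviated together no more than other samples of their set (mean correlation 0.196 for each) and not at every pair of times (lowest -0.0428). The sets were left out of the main model too, and fits with either block are among the alternatives.

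The members and all gene lists were chosen with earlier results of these data known. Named members were isoform families, the core subunits with the largest and smallest changes, the 5 largest rises and falls at 2, 16, 48 and 96 h, those past 4-fold and those nearest the cutoff; of other lists, the regulators and up to 4 genes with the largest changes at 48 or 96 h. Ndufa5, Ndufb10, Ndufc2, Atp5j2, Atp5l and mt-Co1 were named after their values were seen. Alternatives covered other scalings (total reads, upper quartile), pseudocounts, filters, thresholds, limma-voom, the replicate block, each replicate left out, and 2 kinds of trend removal. Depth limits precision most for Atp5s and Cox7a1, and counting error alone is larger in the shallowest library.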

Additional observations from a re-analysis of the deposited data

Results flagged for a closer look

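In 16 of 384 groups of 4 replicates tested (the named members, and the read shares of all members and of each complex, at each time), 1 library stood farther from the others than Dixon's 95% limit of 0.829 for its gap over the range. Chance alone flags about 1 group in 20, more than were found here.

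Libraries that stood below their group held 29.93 normalised reads of Cox7a1 at 48 h, 801.3 of Uqcr10 at 8 h, 424.8 of Ndufv3 at 24 h, 376.1 of Ndufa2 at 2 h and 615.5 of Cox5a at 0 h. Libraries that stood above their group held 371.6 of Cox7a2l at 8 h, 1688 of Ndufa4 at 48 h, 528.7 of Uqcrq at 4 h, 2818 of Sdha at 96 h, 918.2 of Sdhb at 4 h, 960.3 of Sdhc at 96 h, 1631 of Ndufs1 at 8 h, 306.6 of Ndufs7 at 24 h and 2205 of Atp5f1 at 2 h. Ndufa2 also had a high library at 0 h (630.8, replicate 1) and at 16 h (513.5). The gap over the range ran from 0.838 to 0.923. Without 0 h replicate 1, the library with the highest Ndufa2 count at 0 h, the member counts against 0 h are those given in the report.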

How the results depend on the processing

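The alternatives changed the counts of members more than their directions. Beside the main counts given in the report, these values moved by over 1.5 times.

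Total reads gave 60 lower at 2 h, 3 higher at 48 h, 2 higher and 69 lower at 96 h (median -0.50), 9 higher at 96 h against 2 h (median -0.29), and 12 higher at 96 h against 48 h (median -0.0068, reversed). Upper quartile gave 3 higher at 48 h (all genes 32.3%), 3 higher and 67 lower at 96 h (median -0.43), 9 higher at 96 h against 2 h (median -0.27), and 17 higher at 96 h against 48 h (median 0.022). Removing length and GC trends, added after seeing the data, gave 1, 1, 13 and 25 higher at 2, 16, 48 and 96 h, medians of -0.25 at 48 h and -0.087 at 96 h, 33 lower at 96 h where 39.8% of all genes were, and 29 higher and 22 lower at 96 h against 2 h (median 0.073, reversed). Of all genes, 20.5, 26.9, 35.9 and 38% were then higher at 2, 16, 48 and 96 h. Removing length, GC and level trends, also added, gave 2 higher at 16 h, 19 at 48 h (median -0.16), 19 higher and 37 lower at 96 h (median -0.12), 33 higher and 21 lower at 96 h against 2 h (median 0.085, reversed), and 21 higher and 21 lower at 96 h against 48 h (median 0.053). Of all genes, 27.5% were then higher at 16 h, 36.9% at 48 h and 37.9% at 96 h, where 40.1% were lower. From 48 to 96 h 24.9% of all genes were higher and 29.8% lower. The cause of these shifts was not tested.

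The 2 time points fitted alone gave 25 lower at 2 h and 3 higher at 48 h. limma-voom gave 1 higher at 2 h. Replicates 1 and 2 alone gave 1 higher at 2 h and 4 at 96 h (all genes 24.4% and 37.9%). Replicates 3 and 4 alone gave 3 higher and 22 lower at 2 h, 1 higher at 16 h, 10 at 48 h and 18 at 96 h. Of all genes, 25.1, 30.2, 36.6 and 38.6% were higher at these times in that pair. At 2 h the share lower was 28.2% in replicates 3 and 4 alone, near the 24.5% of all genes. In replicates 1 and 2 alone it was 67.9% against 25.1%. These pairs of replicates were added after seeing the data. At FDR 0.01 the counts were 20 lower at 2 h, 3 higher at 48 h, 5 higher at 96 h, 25 lower at 96 h against 2 h, and 16 higher and 5 lower at 96 h against 48 h. For FDR 0.01, limma-voom, the 2 time points alone and the blocks, shares of all genes are not given here. Those counts describe the members alone. At least 1.5-fold left 4 lower at 2 h, 13 lower at 16 h, 1 higher and 26 lower at 48 h, and 2 higher and 16 lower at 96 h. At 96 h it left 5 and 7 against 2 h, and 3 and 2 against 48 h. Of all 15227 genes, this cutoff left 1574 lower at 2 h and 2086 at 16 h. At 48 h it left 3967 higher and 3735 lower, and at 96 h 4249 and 4278. The share of members lower was below that of all genes at 2 and 96 h and above it at 16 and 48 h. For 96 h against 2 h all genes gave 4191 and 4327, and against 48 h 1820 and 2588, so members had smaller shares in each direction. At least 4-fold left 0 in every comparison except 1 lower at 96 h against 0 h and 1 lower at 96 h against 2 h.

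The replicate block gave 1 higher and 45 lower at 2 h, the replicate set as a block 1 and 44, and neither moved another of these counts by over 1.5 times. The mean correlation of deviations was 0.196 between samples sharing a number and 0.196 between the 2 numbers within a set, so the numbers were not taken as pairs. Leaving out 1 library at a time gave 0 to 1 higher and 23 to 48 lower at 2 h, 3 to 7 higher at 48 h and 5 to 10 higher at 96 h. The 23 came without 0 h replicate 1, and the 3 and the 5 without 0 h replicate 4.

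For the 42 named members, 2419 of 2730 values under an alternative stayed on the same side of the threshold with the same sign, 123 no longer passed and 96 newly passed. With total reads, values called with the size factors turned sign and were not called for Sdhc at 48 h (-0.01), Atp5d at 96 h (-0.029) and Atp5b from 48 to 96 h (-0.024). Values not called with the size factors turned sign and were called lower for Ndufs3 (-0.20), Uqcrc2 (-0.21) and Atp5f1 (-0.19) at 96 h with total reads, and for Uqcrc2 (-0.14) at 96 h with upper quartile.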
